A study of Mus musculus with 6 samples.

Results

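H3K27me3 peaks were compared between γδ thymocytes in which a Sox13 reporter was high (Sox13hi) and those in which it was low or off (Sox13lo), for their rank, their width and the way they cluster along the genome. Every H3K27me3 peak on chromosomes 1 to 19 was taken, 14483 in Sox13hi and 7268 in Sox13lo, which together are 21751 of the 74959 peaks in the 5 peak lists of the series. Both groups were sorted thymocytes of C57BL/6 mice that are knocked out for TCRbeta and carry the ECFP reporter in 1 of their Sox13 alleles, so all cells compared share both changes. Sox13hi cells were γδ TCR+, CD24+ and high for the reporter. Sox13lo cells were sorted the same way but low or negative for it, so that group may hold cells without reporter activity. Each ChIP used 250000 cells and the same anti-H3K27me3 antibody (Abcam, ab6002). Neither the age nor the number of animals is stated. With 1 library per population, differences could not be set against a spread between replicates, and p-values are not given. The cell type could not be checked against marker genes from peak positions alone.

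H3K27me3 is the trimethylated form of lysine 27 of histone H3, written by the EZH1 or EZH2 subunit of Polycomb repressive complex 2 (PRC2). The EED subunit of PRC2 binds the mark it has written, which lets the mark spread from a nucleation site, often a CpG island, into a broad domain. Canonical PRC1 reads the mark through its CBX subunits. In developing T cells the mark is known for lying over regulators of other lineages, and at promoters that also carry H3K4me3 it forms the so-called bivalent state. SOX13 is an HMG-box factor of γδ T cells that are programmed in the thymus to make IL-17.

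Because the Sox13hi list was longer, it was reduced to its 7268 highest-scoring peaks, 50.2% of the list, before anything was compared. The score is the authors' own value. It was used to order, select and describe peaks within a list, and whether it is on 1 scale in both libraries is unknown. The lowest score kept was 14.75 in Sox13hi, and the Sox13lo list as deposited ended at 1.5. Read numbers are unknown, and their part in the length of the lists was not tested. The 7215 Sox13hi peaks left out were narrow, with a median width of 200 bp, and 1351 of them (18.7%) lay within 5 kb of a kept peak.

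At equal length the Sox13hi peaks were somewhat broader in the lower part of the distribution. The median width was 400 bp in Sox13hi and 350 bp in Sox13lo, and the lower quartile 300 and 200 bp. The upper quartile was 550 bp in both. Peaks of at least 1000 bp numbered 548 in Sox13hi and 497 in Sox13lo. The cut bears on this order, since score and width go together: in the lists as deposited the median was 300 bp in Sox13hi and 350 bp in Sox13lo. The kept peaks covered 3.63 Mb in Sox13hi and 3.14 Mb in Sox13lo. A broader peak was nearly always a higher-scoring one: Spearman's rho between width and score across peaks was 0.84 in Sox13hi and 0.93 in Sox13lo. Rank and width are thus not separate lines of evidence.

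The first question was how often the populations marked the same place. A peak of one list was paired with the peak of the other list with which it shared most bases, if the choice was mutual, and this gave 2992 pairs, 41.2% of each list (95% exact binomial interval 40.0 to 42.3%). All intervals given here cover counting error only and treat peaks as independent, which neighbouring peaks are not. The bases common to both lists came to 1.43 Mb, 39.4% of the sequence covered in Sox13hi and 45.7% of that in Sox13lo. Most overlaps joined 1 peak to 1 peak: 210 Sox13hi peaks met more than 1 Sox13lo peak, and 144 Sox13lo peaks met more than 1 Sox13hi peak.

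Pairing was tied to rank. The percentile rank runs from 0 for the lowest to 100 for the highest score in a list. Of the 10% of Sox13hi peaks with the highest ranks, 686 of 725 overlapped a Sox13lo peak (94.6%, 92.7 to 96.1%), and of the same 10% in Sox13lo 679 of 725 did (93.7%, 91.6 to 95.3%). For ranks just below the middle of the list (class 5 of 10) the shares were 27.2% and 33.1%, and for the lowest 10% they were 13.1% and 10.3%. The median rank was 74.99 for paired Sox13hi peaks and 33.7 for the 4142 that met no Sox13lo peak. For Sox13lo the values were 74.3 for paired and 33.4 for the 4069 unmatched peaks. The shares of both populations lay close together in each of the 10 rank classes.

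**Figure D1:**
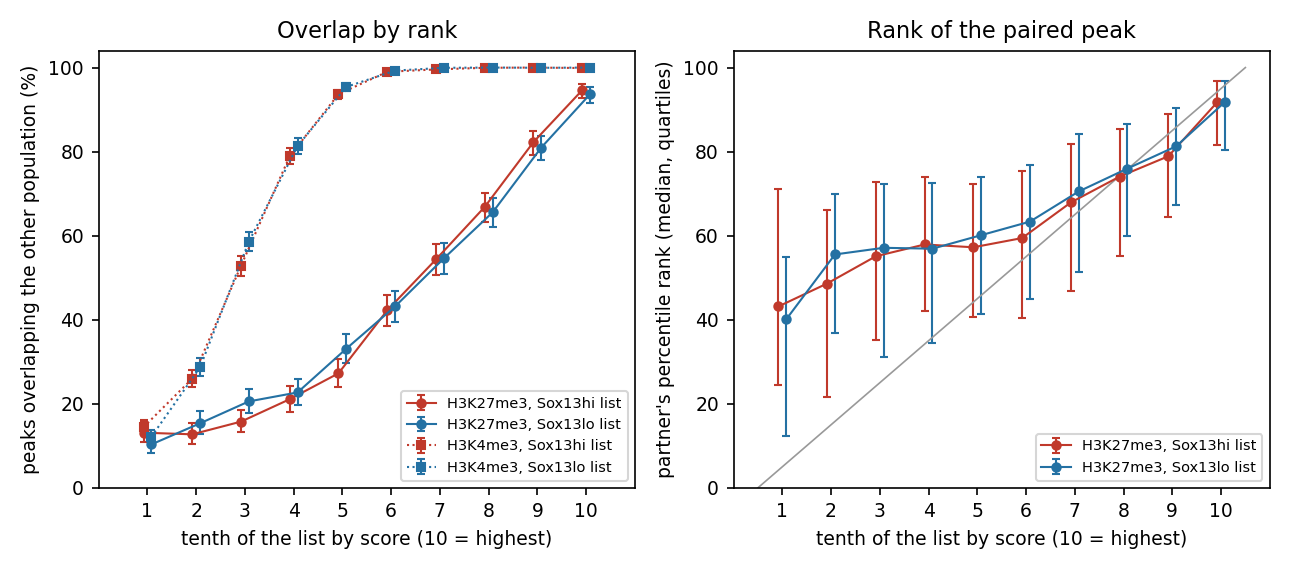
Left, the share of peaks (%) that overlap a peak of the other population, by rank class (10 classes of equal width in rank, 10 the highest), for H3K27me3 (circles) and H3K4me3 (squares), with 95% exact binomial intervals; right, the percentile rank of the partner of a paired H3K27me3 peak, as median and quartiles, with the line of equal rank in grey. H3K27me3 overlap climbs from class 3 on, to 94.6% and 93.7% in class 10, whereas H3K4me3 is above 90% from class 5 on.

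Within pairs, rank differences centred near 0, but single sites changed place widely. Because ranks are taken within lists of equal length, that centre and a near balance of both directions are largely built in. The rank difference, Sox13hi minus Sox13lo, had a median of 0.217 points (95% order-statistic interval -0.179 to 0.839). Its quartiles were -11.8 and 13.7 points, and the median absolute difference was 12.8 points (12.1 to 13.5). Across pairs, which share 2 libraries and are not replicates, Spearman's rho of the ranks was 0.54. A difference of more than 25 points in favour of Sox13hi was seen in 409 pairs (13.7%), and one in favour of Sox13lo in 377 (12.6%).

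The same measures were much tighter for H3K4me3, the mark of active and poised promoters. There the median absolute rank difference was 4.93 points (4.81 to 5.05) over 13549 pairs, rho was 0.93, and 1.45% and 1.05% of pairs differed by more than 25 points in favour of Sox13hi and Sox13lo. The H3K4me3 lists are longer, with 17954 peaks each, of which 75.5% were paired (74.8 to 76.1%), against 41.2% for H3K27me3. Both were also cut to 7268 peaks, a setting added after seeing the data. H3K4me3 then gave a median difference of 8.57 points (8.23 to 8.90), a rho of 0.84 and 90.8% of peaks paired (90.1 to 91.5%). That setting keeps only the highest-scoring 36.5% of Sox13hi and 40.5% of Sox13lo H3K4me3 peaks, whereas the Sox13lo H3K27me3 list is used whole. Since pairing rises with rank, the 90.8% and 41.2% are not shares of like lists. These differences between marks rest on 2 libraries each and were not tested.

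**Figure D2:**
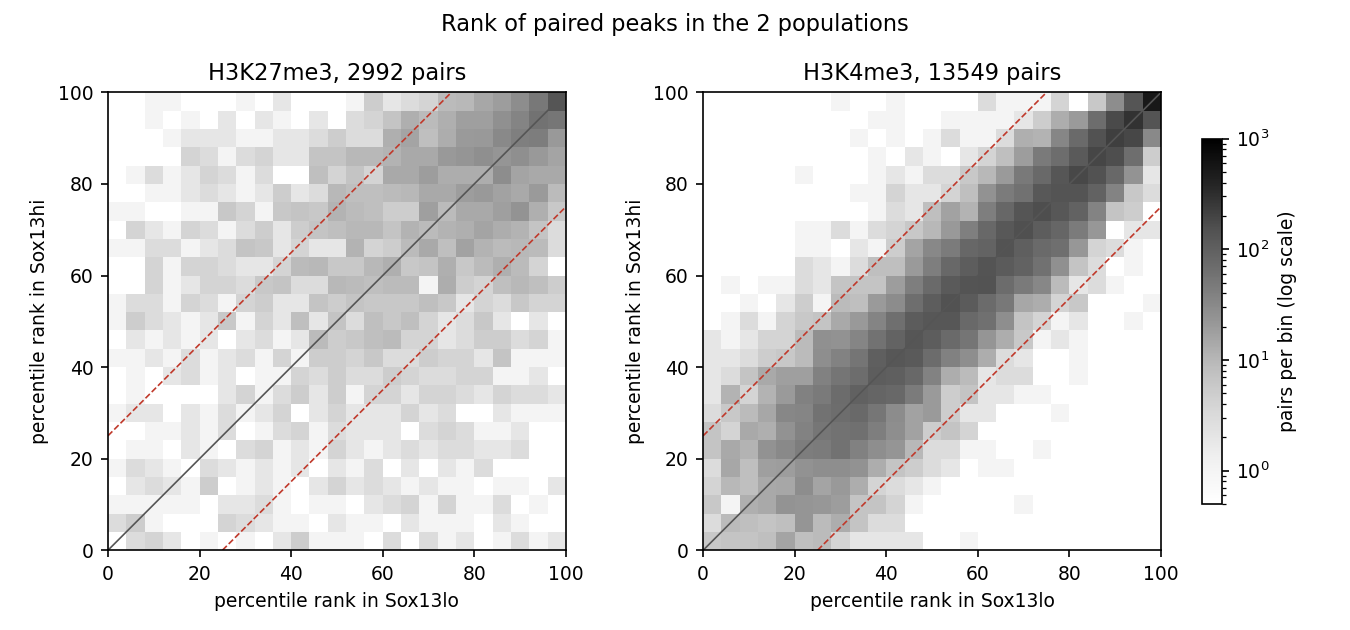
Percentile rank of paired peaks in Sox13lo (horizontal) and Sox13hi (vertical), as the number of pairs per bin on a logarithmic grey scale, for H3K27me3 (left, 2992 pairs) and H3K4me3 (right, 13549 pairs). The solid line marks equal rank and the dashed lines a difference of 25 points; H3K27me3 pairs scatter over the whole square below the highest ranks, while H3K4me3 pairs stay along the line.

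At the very top of the lists the same sites were marked but their order differed. Of the 100 highest-scoring peaks of each population, 99 overlapped a peak of the other, and 39 were paired with a peak that was itself among the 100 highest. For the 500 highest, 480 Sox13hi and 475 Sox13lo peaks were overlapped, and 257 and 256 had a partner among the 500 highest. In H3K4me3, 76 of the 100 highest had a partner among the 100 highest. Of the 500 highest H3K27me3 peaks, 11 in Sox13hi and 15 in Sox13lo had a partner ranked below 50.

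The site of highest mean rank lay on chromosome 11, 82743651 to 82747499 in mm9, with a width of 3850 bp and a score of 542.5 in Sox13hi. Sox13lo had a peak of 3900 bp there with a score of 471, and both peaks began at the same base. Positions are those of the deposited files with starts counted from 1; widths include the last base of each 50 bp step and so exceed the printed span by 1. Sites are given by position alone, since the gene and sequence tables used here are on another build. The next site was also on chromosome 11, 74980501 to 74982949 in Sox13hi (2450 bp) and 74978601 to 74981499 in Sox13lo (2900 bp), where the peaks shared 1000 bp. The others, on chromosome 8 at 72405251 and chromosome 2 at 73111001 and 118528201, were 1750 to 1850 bp wide in Sox13hi and 2200 bp in Sox13lo. All 5 sites carried H3K4me3 in both populations, and the chromosome 8 site alone carried SOX13.

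Pairs with a high-ranked peak differed less in rank than pairs at large, but some differed widely. There were 974 pairs with at least 1 peak among the highest 10% of its list. Their median absolute rank difference was 7.94 points, against 12.8 over all pairs. Of the 974, 77 differed by more than 25 points in favour of Sox13hi and 89 in favour of Sox13lo. Over all 2992 pairs these numbers were 409 and 377. The largest difference in favour of Sox13hi was on chromosome 6, 41128501 to 41129399: rank 98.8 and 900 bp in Sox13hi, rank 11.4 and 300 bp in Sox13lo. This site held a SOX13 peak, and H3K4me3 was called there in Sox13hi and not in Sox13lo. The input library was not used, so its signal there is unknown.

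The next 4 of these Sox13hi sites had partners of 100 to 200 bp. On chromosome 7, 52592801 to 52594399, a 1600 bp peak of rank 97.9 met a 150 bp Sox13lo peak of rank 13.1. On chromosome 3, 96487951 to 96489049, an 1100 bp peak of rank 93.1 met a 100 bp peak of rank 9.49, and a SOX13 peak lay there too. The sites on chromosome 12 at 72932451 and chromosome 7 at 104936701 differed by 76.1 and 74.3 points. In each case a broad Sox13hi peak thus stood against a narrow one in Sox13lo.

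In the other direction the largest differences were -97.8 points on chromosome 6, 99642651 to 99643849, and -95.0 points on chromosome 11, 118950751 to 118952149. The first was 1200 bp wide with rank 98.1 in Sox13lo and 200 bp with rank 0.323 in Sox13hi, and it held SOX13 and H3K4me3. The second was 1400 bp wide in Sox13lo and 350 bp in Sox13hi. The others, on chromosome 1 at 122237151, chromosome 7 at 51567151 and chromosome 15 at 102829201, differed by -91.4, -88.6 and -85.6 points. The Sox13hi partners of these 5 sites scored 14.75 to 15.75, right at the lowest score kept. The size of these differences is thus set by where the list ends: ranked in the full Sox13hi list, which adds peaks of 14.75 or less, the same peaks stand at ranks of 49.8 to 52.7.

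At equal length paired peaks were slightly broader in Sox13hi. The median width was 550 bp in both, but the median of the ratio within pairs was 1.11 (1.08 to 1.13), a log2 value of 0.15. The Sox13hi peak was broader in 1613 pairs (53.9%), the Sox13lo peak in 1157 (38.7%), and 222 were equal. A width at least 2-fold larger was seen in Sox13hi in 565 pairs (18.9%) and in Sox13lo in 279 (9.32%). With the lists as deposited the median log2 ratio was 0 and the shares 17.0% and 14.4%, and in lists of 3634 peaks the median was 0.087 (0 to 0.126) and the shares 11.5% and 7.27%. The median shift towards Sox13hi was thus absent without the cut, and its interval reached 0 in the lists of 3634 peaks. The cut at 7268 left out Sox13hi peaks with a median width of 200 bp, while the Sox13lo list kept all its narrow peaks. Whether the shift goes beyond this was not tested. For H3K4me3 at equal length the median ratio was 1, with 4.07% and 1.11% of pairs at least 2-fold wider. The rank difference and the log2 width ratio of H3K27me3 pairs had a rho of 0.90, and since width and score are tied within a list this is no separate result.

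The edges of paired H3K27me3 peaks moved more than those of H3K4me3 peaks. The starts differed by a median of 150 bp and the ends by 150 bp, against 50 bp each for H3K4me3. Both edges were identical in 34 pairs (1.14%). The Sox13lo peak lay inside the Sox13hi peak in 1013 pairs (33.9%), the reverse held in 644 (21.5%), and in 1301 (43.5%) the peaks were staggered, each extending past the other at one end.

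The broadest peaks were shared, and in several of them one population had a single peak where the other had a row of shorter ones. The broadest Sox13hi peak, on chromosome 3, 89122451 to 89126999, spanned 4550 bp and overlapped 5 Sox13lo peaks, the best of them 1400 bp wide. On chromosome 19, 45307501 to 45311549, a Sox13hi peak of 4050 bp overlapped 3 Sox13lo peaks. Another, on chromosome 2, 25432151 to 25435899, spanned 3750 bp and overlapped 2. The reverse was seen as well: the Sox13lo peak of 2800 bp on chromosome 15, 98635301 to 98638099, and that of 2600 bp on chromosome 17, 8992551 to 8995149, overlapped 3 Sox13hi peaks each. On chromosome 11, 119406751 to 119410099 in Sox13hi and 119407751 to 119411149 in Sox13lo, peaks of 3350 and 3400 bp were offset by 1000 bp at the start.

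Among pairs with a peak of at least 1000 bp, 744 in all, the largest width ratios in favour of Sox13hi were 13.5 on chromosome 7, 147234051 to 147235399, and 11 on chromosome 6, 28084201 to 28085299, as well as at the chromosome 3 site at 96487951 named above. The Sox13lo peaks there were 100 bp wide. The chromosome 7 site at 52592801 came next, and the last, on chromosome 6, 29119401 to 29121149, measured 1750 bp in Sox13hi and 200 bp in Sox13lo. In favour of Sox13lo the largest ratio was 16, on chromosome 5, 28784301 to 28785899, where the Sox13hi peak was 100 bp wide. Ratios of 6.5 and 6 followed on chromosome 1 at 75483151 and at the chromosome 6 site at 99642651, then 5.83 on chromosome 15, 79634101 to 79635849, and 5.5 on chromosome 11 at 3898051. The chromosome 15 site stayed high in both lists, with ranks of 74.1 in Sox13hi and 99.4 in Sox13lo.

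H3K27me3 peaks came in clusters in both populations. Joining peaks at most 5 kb apart gave 4994 domains in Sox13hi and 4708 in Sox13lo, of which 3721 and 3328 were single peaks. Domains of 2 or more peaks held 3547 Sox13hi peaks (48.8%, 47.6 to 49.96%) and 3940 Sox13lo peaks (54.2%, 53.1 to 55.4%). The difference, Sox13hi minus Sox13lo, was -5.41 percentage points (-7.04 to -3.77). It was -0.936 points (-3.25 to 1.38) when both lists were cut to the 3634 highest scores and -12.9 points without the cut. The greater clustering in Sox13lo was thus not seen among the highest scores, where the interval includes 0.

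**Figure D3:**
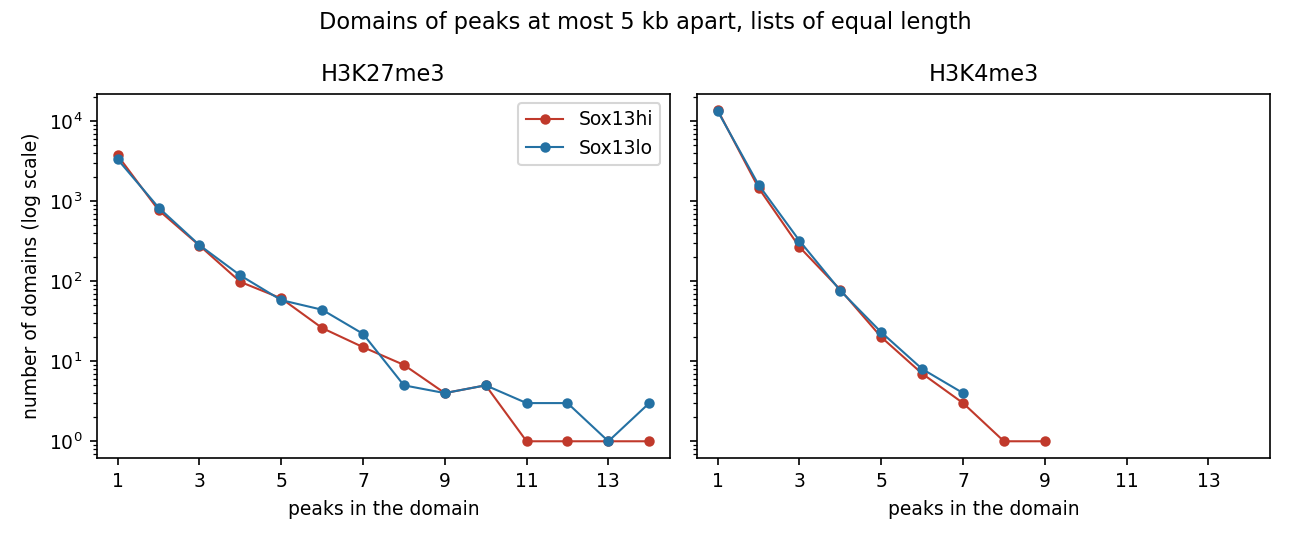
Number of domains (vertical, logarithmic) by the number of peaks they hold (horizontal), for H3K27me3 (left) and H3K4me3 (right), with Sox13hi in red and Sox13lo in blue, lists of equal length within a mark. H3K27me3 domains reach 14 peaks in both populations, and H3K4me3 domains 9 in Sox13hi and 7 in Sox13lo.

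At equal length large domains were somewhat more numerous in Sox13lo. Domains of 3 or more peaks numbered 501 in Sox13hi and 548 in Sox13lo, those of 5 or more 124 and 148, and those of 10 or more 9 and 15. Domains of 5 or more held 10.6% and 13.2% of the peaks. The highest number was 14 in both. For domains of 3 or more the order turned without the cut, with 853 in Sox13hi and 548 in Sox13lo, and in lists of 3634 peaks the numbers were 209 and 218. By length the order differed: the median domain of 2 or more peaks was 2800 bp long in Sox13hi (2650 to 2950) and 2350 bp in Sox13lo (2200 to 2500). Domains of at least 10 kb numbered 70 and 72, and the longest measured 25750 bp in Sox13hi and 30000 bp in Sox13lo.

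Peaks inside a domain sat close together. The median gap between neighbours joined into a domain was 800 bp in Sox13hi and 750 bp in Sox13lo, and 57.3% and 61.3% of these gaps were at most 1 kb. Over all neighbouring peaks the median gap was 59800 bp in Sox13hi and 40300 bp in Sox13lo. Called peaks covered a median of 47.4% of the length of a domain of 2 or more peaks in Sox13hi and 45.9% in Sox13lo, and 33.7% and 33.0% of one with 5 or more peaks. In domains of 3 or more peaks, the broadest peak made up a median of 41.4% and 44.4% of the covered bases. A peak of rank 90 or above was present in 42.1% and 41.6% of these domains, and a peak of rank below 25 in 44.3% and 50.7%. The median span from the lowest to the highest rank within such a domain was 52.9 points in Sox13hi and 54.8 in Sox13lo.

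H3K4me3 was far less clustered. At equal length, 23.5% of Sox13hi and 25.9% of Sox13lo H3K4me3 peaks were in domains of 2 or more, and 32 and 35 domains had 5 or more peaks. At the length of the H3K27me3 lists the shares were 6.05% and 6.21%, and no domain had 5 peaks. The setting keeps the highest-scoring H3K4me3 peaks, whose median width was 1300 bp against 400 and 350 bp for H3K27me3.

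Clustering differed between chromosomes. In Sox13hi the share of peaks in domains of 2 or more ran from 37.1% on chromosome 18 to 56.7% on chromosome 15, and in Sox13lo from 45.4% on chromosome 18 to 61.7% on chromosome 15. Domains of 5 or more peaks were most numerous on chromosome 2 in Sox13hi, with 17, and on chromosomes 7 and 11 in Sox13lo, with 17 each. These counts follow peak number in part. Chromosome 2 held 9.80% of all Sox13hi peaks, and chromosomes 7 and 11 held 8.24% and 9.30% of all Sox13lo peaks. Chromosome 18 had no such domain in either, but held only 2.82% of Sox13hi and 2.52% of Sox13lo peaks. The share of peaks in domains of 2 or more was higher in Sox13lo on 18 of 19 chromosomes. The exception was chromosome 4, with 51.3% in Sox13hi and 49.4% in Sox13lo.

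Clustered peaks were more often found in both populations than solitary ones. In Sox13hi 29.99% (28.5 to 31.5%) of single peaks overlapped a Sox13lo peak, against 52.6% in domains of 2, 57.9% in domains of 3 or 4 and 62.8% (59.3 to 66.2%) in domains of 5 or more. In Sox13lo the shares were 32.6% (31.0 to 34.2%), 49.5%, 55.4% and 58.6% (55.4 to 61.7%). Clustered peaks also ranked higher, with a median rank of 60.4 in Sox13hi domains of 5 or more and 38.2 for single peaks. Among ranks in the lowest of 3 equal classes the gap remained: 6.97% of single and 30.7% of clustered Sox13hi peaks were overlapped, and 8.61% and 27.6% in Sox13lo. In the highest class it was smaller, 76.5% and 81.1% in Sox13hi and 75.7% and 79.0% in Sox13lo. The median absolute rank difference within pairs ran from 12.1 to 13.4 points over the size classes in Sox13hi and from 12.3 to 14.4 in Sox13lo.

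Nearly every large domain had a counterpart. Of the 124 Sox13hi domains of 5 or more peaks, 123 met a Sox13lo domain, 122 met one of 2 or more peaks and 76 met one of 5 or more. Of the 148 in Sox13lo, 146 met a Sox13hi domain, 141 met one of 2 or more peaks and 76 met one of 5 or more. Domains of 2 peaks met a counterpart in 80.6% and 76.2% of cases, and single peaks in 30.8% and 33.2%. Any contact counted as meeting, and a longer domain with more peaks meets another more easily. Domains of 5 or more peaks had a median length of 10050 bp in Sox13hi and 9325 bp in Sox13lo. The part of length and peak number in these shares was not tested. Some large domains were broken up in the other list: 20 in Sox13hi and 24 in Sox13lo met 2 or more separate domains.

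To compare peak numbers at the same place, the peaks of both lists were joined by the same 5 kb rule into 6995 joint domains. Both populations had peaks in 2556 of them (36.5%), Sox13hi alone in 2362 (33.8%) and Sox13lo alone in 2077 (29.7%). This split depends on the length of the lists. Without the cut the numbers were 2883, 7573 and 1713 of 12169 joint domains. In lists of 3634 peaks they were 1793, 795 and 756 of 3344. The 6995 joint domains also gathered peaks that did not touch each other. Of the 4142 unmatched Sox13hi peaks, 1639 (39.6%, 38.1 to 41.1%) shared a joint domain with the other population. Of the 4069 unmatched Sox13lo peaks, 1788 (43.9%, 42.4 to 45.5%) did. An unmatched peak was therefore often part of a region that both populations marked. Domains of 1 population were small, with at most 4 peaks, and 12 in Sox13hi and 23 in Sox13lo had 3 or more.

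Where both populations had peaks, the numbers were mostly alike. They were equal in 1332 joint domains (52.1%) and within 1 of each other in 2237 (87.5%). Sox13lo had more peaks in 681 and Sox13hi in 543, and the order turned without the cut, with 525 and 1021. A difference of 3 or more was seen in 50 domains in favour of Sox13lo and 33 in favour of Sox13hi. Spearman's rho across joint domains was 0.54 for peak number and 0.64 for covered bases. In 183 of the 681 domains with more Sox13lo peaks (26.9%) the Sox13hi peaks nevertheless covered more bases, and the reverse held in 62 of 543 (11.4%). Peak number and covered length therefore do not always point the same way.

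**Figure D4:**
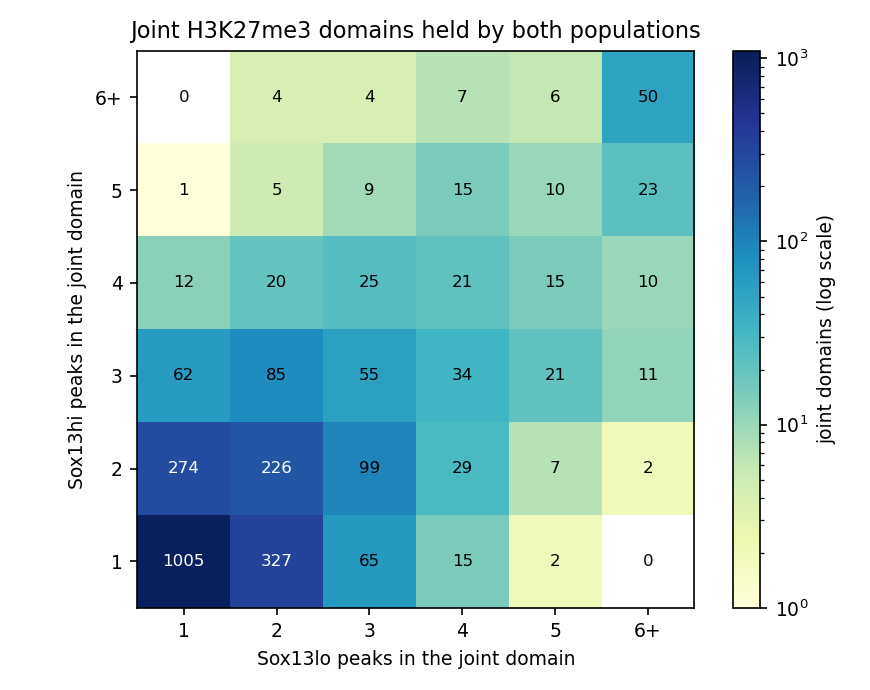
Joint H3K27me3 domains held by both populations, by the number of Sox13lo peaks (horizontal) and Sox13hi peaks (vertical) in them, with 6 or more grouped; each cell gives the number of joint domains on a logarithmic colour scale. The single largest cell, 1005 domains, has 1 peak in each population, and 50 domains have 6 or more in both.

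The joint domains with the most peaks in all were chosen by the sum over both populations, so that both have peaks there follows from the choice. On chromosome 2, 71365251 to 71388349, there were 13 Sox13hi and 14 Sox13lo peaks over 23100 bp, covering 7200 and 9050 bp. On chromosome 11, 118896151 to 118921899, each population had 12 peaks, covering 8550 bp in Sox13hi and 9900 bp in Sox13lo. Another chromosome 11 cluster, 98179001 to 98210699, held 13 and 12. Each of these 3 clusters held 1 SOX13 peak and between 3 and 7 H3K4me3 peaks in either population. On chromosome 2, 74513101 to 74544149, the numbers were 10 in Sox13hi and 14 in Sox13lo, but the fewer Sox13hi peaks covered more, 7800 against 6300 bp.

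In the 2 clusters with the largest surplus in Sox13hi, a broad Sox13lo peak lay where Sox13hi had several. On chromosome 15, 98616851 to 98638099, Sox13hi had 14 peaks covering 9000 bp and Sox13lo 6 covering 6750 bp, and the highest rank was 99.6 in Sox13hi and 99.7 in Sox13lo. These highest-ranked peaks lay apart: the Sox13hi one began 3150 bp and the Sox13lo one 18450 bp from the start of the cluster, and the latter spanned 2800 bp where Sox13hi had 3 peaks. On chromosome 4, 46350901 to 46366449, the numbers were 8 and 3, with 4250 and 2950 bp covered. Its highest-ranked Sox13lo peak, 5550 to 7500 bp from the start, overlapped the 2 highest-ranked Sox13hi peaks.

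A second chromosome 4 cluster, 139370601 to 139392449, had 11 and 7 peaks, no H3K4me3 in either population and 1 SOX13 peak. Its highest rank was 79.8 in Sox13hi and 90.4 in Sox13lo. The remaining ones were on chromosome 2, 74572501 to 74602449, with 10 and 6 peaks, and chromosome 15, 75561151 to 75578099, with 8 and 4. The order was the opposite at the chromosome 2 cluster named above, 74513101 to 74544149, with 10 Sox13hi and 14 Sox13lo peaks. All 5 with a Sox13hi surplus kept one in lists cut to 3634 peaks, of 6, 2, 2, 3 and 3 in the order named. The surplus of the chromosome 4 clusters thus fell from 5 and 4 peaks to 2 each. Those shorter lists are subsets of the ones from which the clusters were chosen, so a kept surplus is no separate evidence.

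The clusters with the largest surplus in Sox13lo included the largest of all, on chromosome 6, 52171201 to 52203849, with 10 Sox13hi and 18 Sox13lo peaks over 32650 bp. The covered bases there were closer, 8100 and 9300 bp, and the deposited Sox13hi list has 15 peaks in it. On chromosome 14, 122861251 to 122882499, the numbers were 4 and 12, with 4250 and 7200 bp covered, and the cut removed no Sox13hi peak. The highest ranks at that cluster were 99.5 in Sox13hi and 97.9 in Sox13lo, but at different places. The Sox13hi peak of rank 99.5, 12800 to 14650 bp from the start, overlapped 3 Sox13lo peaks of rank 80.6 to 89.0, and the Sox13lo peak of rank 97.9 overlapped a Sox13hi peak of rank 97.3.

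On chromosome 19, 45219201 to 45239999, there were 6 Sox13hi and 13 Sox13lo peaks, with 2100 and 4750 bp covered and neither H3K4me3 nor SOX13. On chromosome 5, 120110851 to 120135999, the numbers were 3 and 10, with 1500 and 4600 bp covered, again without H3K4me3 or SOX13. These 2 had the lowest ratios of covered bases of the 10 clusters named for their difference, 0.442 and 0.326. The cut bears on both, since the deposited Sox13hi list has 9 peaks in the chromosome 19 cluster and 4 in the chromosome 5 cluster. The last, on chromosome 6, 83641151 to 83667899, had 6 and 12 peaks, and 11 and 12 in the deposited lists. Without the cut its difference was thus 1 peak. In lists cut to 3634 peaks, which are subsets of those used for the choice, all the clusters named for a Sox13lo surplus kept it. The differences there, Sox13hi minus Sox13lo, were -4, -6, -6, -5 and -3 peaks in the order named.

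**Figure D5:**
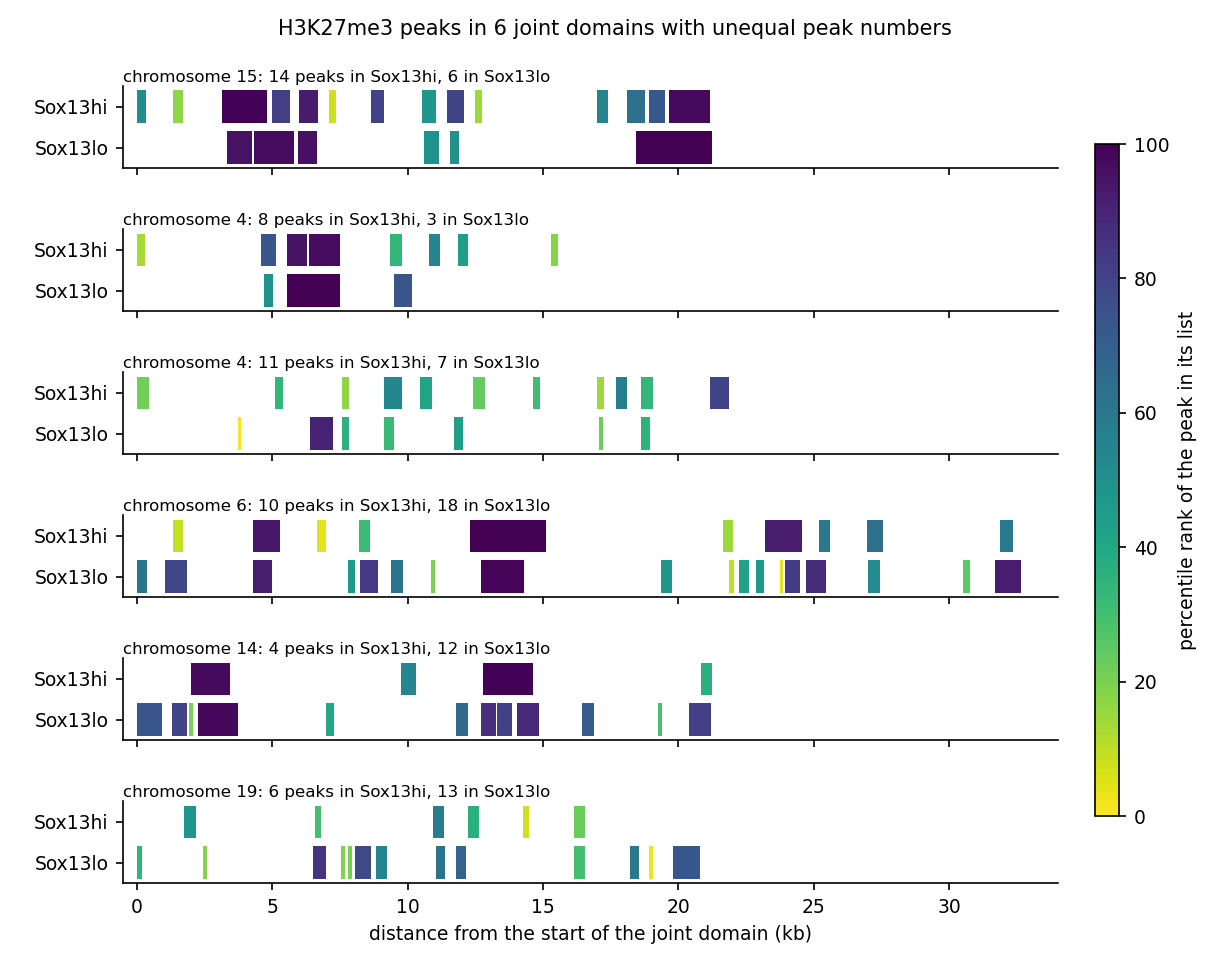
H3K27me3 peaks of Sox13hi (upper row of each map) and Sox13lo (lower row) in 6 joint domains, drawn to scale by distance from the start of the domain (kb) and coloured by percentile rank in their own list. The upper 3 maps have more Sox13hi peaks and the lower 3 more Sox13lo peaks; in the chromosome 6 map with 10 and 18 peaks the highest-ranked peaks overlap, and in the chromosome 15 map they lie 3150 and 18450 bp from the start.

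The other marks were then placed on single and clustered peaks. H3K4me3 of the same population was most frequent in domains of 2 H3K27me3 peaks, at 50.5% (47.9 to 53.0%) of Sox13hi and 45.9% (43.5 to 48.3%) of Sox13lo peaks. It was at 34.1% (30.8 to 37.6%) and 30.5% (27.6 to 33.5%) of peaks in domains of 5 or more, and at 32.8% (31.3 to 34.3%) and 35.7% (34.1 to 37.4%) of single peaks. SOX13, which was mapped in Sox13hi cells, showed no such pattern. It was at 4.49% (3.85 to 5.20%) of single Sox13hi peaks and 4.78% (3.39 to 6.53%) of those in domains of 5 or more, and at 5.59% and 4.49% in Sox13lo, with overlapping intervals. For H3K4me3, the intervals of single peaks and of peaks in domains of 5 or more overlapped in Sox13hi and did not in Sox13lo, where the large domains were lower.

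Peaks found in both populations carried H3K4me3 and SOX13 more often than the others. In Sox13hi 65.4% (63.7 to 67.1%) of the overlapping and 18.5% (17.4 to 19.8%) of the unmatched peaks lay on H3K4me3, and 7.68% (6.77 to 8.67%) and 2.56% (2.10 to 3.09%) on SOX13. In Sox13lo the shares were 62.4% and 19.2% for H3K4me3, and 7.56% and 2.68% for SOX13. Overlapping peaks are also broader, with a median of 550 against 350 bp in Sox13hi and 500 against 250 bp in Sox13lo. A broader peak meets other peaks more easily, and the part of width in these shares was not tested.

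SOX13 was about as frequent at pairs that ranked higher in either population. It lay at 28 of the 409 pairs that ranked more than 25 points higher in Sox13hi (6.85%, 4.597 to 9.74%) and at 26 of the 377 that ranked higher in Sox13lo (6.90%, 4.55 to 9.94%). It lay at 9.02% (7.86 to 10.3%) of the pairs within 25 points, whose median mean rank was higher, 79.1 against 55.5 and 56.0. H3K4me3 of Sox13hi cells lay at 59.2% (54.2 to 64.0%) of the pairs higher in Sox13hi and 50.9% (45.8 to 56.1%) of those higher in Sox13lo. H3K4me3 of Sox13lo cells lay at 52.8% and 52.5%. Both groups were below the pairs within 25 points, where the shares were 69.2% for Sox13hi H3K4me3 and 66.6% for Sox13lo H3K4me3. Over all pairs they were 65.5% and 63.0%, and for SOX13 8.46%.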

How the data were processed

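ChIP-seq peak lists of 5 libraries were used, 1 per group, out of 6 libraries listed. An input library was not used here. Cells were fixed with 1% formaldehyde, and libraries were amplified for 17 cycles and selected for fragments of 300 to 500 bp, per the labels' protocols. Positions are on mm9 according to the submitters' processing notes. The peak score is the authors' deposited value, a multiple of 0.25 within 0.00147. How the authors computed it, mapped reads and called peaks is not given in the sources used here. Depth is unknown.

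Lists were limited to chromosomes 1 to 19, and the longer was cut by score to the length of the shorter, with ties at the last score drawn at random. Overlap means at least 1 shared bp. Rank is the mid-rank percentile within the cut list. Named sites are the 5 most extreme by mean rank, by rank difference (a peak in the highest 10%), by width ratio (a peak of at least 1000 bp), by peak width, by peak number and by difference in peak number. Alternatives were no cut, lists of 3634 peaks, ties dropped, chromosome X, 50% overlap, every overlap, and gaps of 2 and 10 kb; H3K4me3 lists at 7268 peaks were added after seeing the data. Members, lists and measures were chosen with earlier results of these data known. Intervals are exact (Clopper-Pearson) binomial for shares, order-statistic for medians, and for differences of shares the exact bounds combined by Newcombe's method. The overlap and joining code gave 3349 overlaps and 4994 and 4708 domains, the numbers bedtools 2.31.1 gave, and recovered 100% of pairs and domains in simulated lists. Python 3.11.15, NumPy 2.4.6, pandas 2.3.3, SciPy 1.17.1 and matplotlib 3.10.9 were used. Gene and sequence tables on hand are on another build and were not joined to the peaks.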

Additional observations from a re-analysis of the deposited data

Results flagged for a closer look

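H3K27me3 peaks on chromosome Y lie outside the comparisons, which cover chromosomes 1 to 19. There were 100 in Sox13hi and 82 in Sox13lo, and these counts were not set against an expected number. Of these, 50 Sox13hi peaks (50%, 95% exact binomial interval 39.8 to 60.2%) and 56 Sox13lo peaks (68.3%, 57.1 to 78.1%) overlapped a peak of the other population. Their highest scores were 953 and 1036, and mapping to repeats of chromosome Y was not examined.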

How the results depend on the processing

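No paired analysis was possible because H3K27me3 was profiled once per population, and no replicate could be left out for the same reason. Adding chromosome X or dropping the peaks tied at the last score left all 17 main values within their intervals (counts within 1.5 times), and so did asking for 50% overlap for the 8 it touches, with 38.7% of peaks then paired. The order of joint domains with more Sox13lo (681) and more Sox13hi peaks (543) turned without the cut (525 and 1021).

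Without the cut there were 10544 Sox13hi domains and 853 with 3 or more peaks, above the 548 of Sox13lo, so that order turned too. The share of Sox13hi peaks in domains of 2 or more was 41.3%, -12.9 points from Sox13lo. Ranks of all kept Sox13hi peaks then rise because peaks of no higher score are added below them, so rank differences tilt to Sox13hi by construction. The absolute rank difference of pairs had a median of 14.6 points, and the difference passed 25 points in 26.3% (Sox13hi) and 5.42% (Sox13lo). The median log2 width ratio was 0, and 17.0% and 14.4% of pairs were at least 2-fold wider in Sox13hi and Sox13lo. The named pairs in favour of Sox13lo moved, by the same construction, to between -48.3 and -38.7 points.

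With both lists at 3634 peaks there were 2009 pairs, 55.3% of each list. Their median absolute rank difference was 17.3 points and rho 0.46, with 19.1% and 16.8% past 25 points. The log2 width ratio was 0.087, with 11.5% and 7.27% at least 2-fold wider. There were 2612 and 2575 domains, 209 and 218 with 3 or more peaks, 46.5% and 47.5% of peaks in domains of 2 or more (-0.936 points), and a median length of 2525 bp in Sox13lo.

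Counting every overlap gave a median absolute rank difference of 14.4 points, a rho of 0.41, 16.3% past 25 points in favour of Sox13hi, and 22.1% and 11.6% at least 2-fold wider. A joining gap of 2 kb put 40.2% and 46.5% of peaks in domains of 2 or more, with median lengths of 2100 and 1850 bp. A gap of 10 kb gave 53.8% and 59.1%, with 3450 and 2900 bp.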

Other observations

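The 2 highest-scoring Sox13hi H3K27me3 peaks stood apart from the rest in score for their width, and were singled out after their values were seen. The first, on chromosome 6, 41071601 to 41072199, was 600 bp wide with a score of 1843, or 307 per 100 bp, where the median of the list was 7.70 and its ninety-ninth percentile 15.6. Sox13lo had a peak with the same edges, at rank 88.6 of its own list. The second, on chromosome 6, 40841651 to 40842249, also 600 bp wide, had 143 per 100 bp and no Sox13lo peak. Both carried H3K4me3 and SOX13 in Sox13hi.

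The largest clusters of 1 population had 4 peaks. On chromosome 4, 48058651 to 48064849, Sox13hi had 4 peaks covering 3250 bp, the best of rank 93.9, and the full Sox13lo list had none. H3K4me3 was called there in both populations, with 2 peaks in Sox13hi and 3 in Sox13lo. On chromosome 11, 59103201 to 59108049, Sox13lo had 4 peaks covering 1600 bp, the best of rank 75.4, and the full Sox13hi list had none. No H3K4me3 or SOX13 peak lay in that cluster. Another Sox13lo cluster of 4 peaks, on chromosome 9, 21792201 to 21795249, covered 1250 bp. The full Sox13hi list had 1 peak there, so its place among clusters of 1 population came from the cut.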
